A study of Rattus norvegicus with 6 samples.

Results

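The regions described here are 402 CG regions of open-sea intergenic DNA outside repeats, out of 5849 CG regions (6.87%) in the annotated list of differentially methylated regions. A region belonged to them when the annotation placed it in the open sea, the DNA beyond CpG islands and their flanking shores and shelves, and gave it no CpG island, shore, repeat, promoter, exon, intron, untranslated region, transcription start site or transcription end site. The measurement was the methylome of brain microvascular endothelial cells (BMECs), the cells that line the capillaries of the brain and form the blood–brain barrier. They were sorted as CD45-/CD31+ cells from the hippocampus of adult male Sprague-Dawley rats. The CUMS group comprised 3 samples from rats that underwent 8 weeks of chronic unpredictable mild stress, and the Ctrl group comprised 3 samples from rats without stress. The tables give a single methylation level per group for each region, combined over the samples by the authors. The spread between rats and the read depth at each region are therefore unknown for every value given here, and no difference was tested. The list had been made from the same contrast, so a difference between CUMS and Ctrl was a condition for entering it. Endothelial identity could not be checked against marker genes, since only listed regions carry levels.

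CpG islands are short stretches rich in CG dinucleotides that often span gene starts and are mostly unmethylated. The open sea holds few CG dinucleotides, and in mammalian cells most of them are methylated. Intermediate or low levels away from genes are known from distal regulatory elements such as enhancers, where methylation differs between cell types. Whether any of the 402 regions is such an element was not tested.

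To determine the direction of the differences, regions with a higher level in CUMS were called hypermethylated and those with a lower level hypomethylated. Of the 402 regions, 283 (70.4%) were hypermethylated, beside 80.0% of all CG regions. The other 119 (29.6%) were hypomethylated, beside 20% of all CG regions. The hypermethylated share was thus below that of the whole list, in which CpG island regions are the most numerous class. Among the 3083 CpG island regions it was 97.0%. The 3 open-sea classes differed from each other. The share was 53.1% among the 1075 open-sea intergenic regions in repeats and 62.2% among the 1049 open-sea regions in genes and promoters. The 402 regions outside both had the highest share of the 3 and lay nearer to the 167 shore regions (77.2%) and the 73 shelf regions (75.3%).

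**Figure D1:**
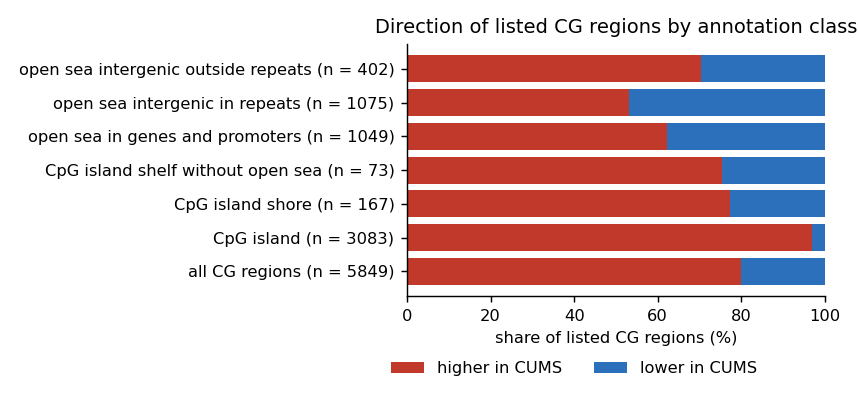
Share of listed CG regions with a higher (red) and a lower (blue) methylation level in CUMS than in Ctrl, in percent, for each annotation class and for all CG regions, with the number of regions. Open-sea intergenic regions outside repeats were hypermethylated in 70.4% of cases, above both other open-sea classes and below CpG islands.

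The levels from which the regions departed were examined next. In Ctrl, the hypermethylated regions had a median level of 38.9%, with a middle range of 24.0% to 58.1% between the lower and the upper quartile. In CUMS their median was 62.5%, and the median difference was 20.04 percentage points. These regions were thus partly methylated in the unstressed rats, in contrast to hypermethylated CpG island regions, whose Ctrl median was 6.28%. The hypomethylated regions had a median of 66.8% in Ctrl and of 42.2% in CUMS, with a median difference of -20.9 points. Over all CG regions, the median difference was 14.7 points among hypermethylated and -19.1 points among hypomethylated regions. Open-sea intergenic regions in repeats lay higher in both directions, with Ctrl medians of 61.1% and 85.0%. In genes and promoters these were 47.3% and 80.1%.

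Most regions were at a middle or high level in both groups. Of the 283 hypermethylated regions, 33 were under 10% in Ctrl, 151 lay between 10% and 50%, and 99 were at 50% or more. In CUMS none was under 10%, 76 lay between 10% and 50%, and 207 were at 50% or more. The level of 50% was crossed upward by 108 regions (38.2% of the hypermethylated). Among the hypomethylated regions, 29 (24.4%) crossed it downward, 15 went from between 10% and 50% to under 10%, and 48 stayed at 50% or more. No hypomethylated region was under 10% in Ctrl, and the lowest of their Ctrl levels was 12.6%. This follows in part from the listing, since a region low in Ctrl has little room for a lower level in CUMS. The absence of hypermethylated regions under 10% in CUMS follows in part from it likewise. Sorting by direction also favours lower Ctrl levels among the hypermethylated regions.

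**Figure D2:**
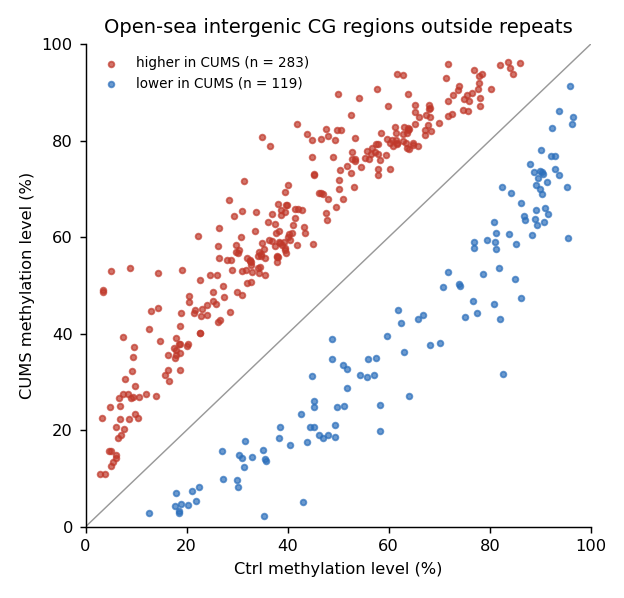
Methylation level in CUMS against that in Ctrl, in percent, for the 283 hypermethylated (red) and 119 hypomethylated (blue) open-sea intergenic CG regions outside repeats. Each point is a region and the grey line marks equal levels. The band along the line is empty because regions without a difference were not listed, and most red points begin between 10% and 50% in Ctrl.

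Direction also varied with the average of both groups' levels. Below 25%, 36 of 59 regions (61.0%) were hypermethylated, whereas over all CG regions at that level the share was 96.2%. Between 25% and 50% it was 75.7% of 136 regions and between 50% and 75% it was 77.4% of 133 regions, beside 76.2% and 64.0% over all CG regions. Above 75%, 41 of 74 regions (55.4%) were hypermethylated, beside 50.3%. The hypermethylated share was therefore highest at middle levels and lower at both ends. The other 2 open-sea classes had this pattern too. In repeats the share was 48.0% below 25% (25 regions), 60.5% between 25% and 50%, 56.1% between 50% and 75%, and 49.0% above 75%. In genes and promoters these values were 59.8%, 75.8% and 49.5%. Over all CG regions the share was highest at the lowest levels, where 2755 of 3039 were CpG island regions.

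The size of the differences ranged from 4.51 to 50.8 percentage points, with a median of 20.2. A difference of at least 10 points was present in 389 regions (96.8%), beside 76.1% of all CG regions. The share was 91.5% among open-sea intergenic regions in repeats and 94.5% among open-sea regions in genes and promoters. The study's methods name 10% as the minimum difference of a region, and the deposited list departs from it. At least 30 points were reached by 53 regions (13.2%), beside 8.38% of all CG regions. In the other open-sea classes the share was higher, at 18.0% in repeats and 14.0% in genes and promoters. Of the 13 regions under 10 points, 8 were hypermethylated and 5 hypomethylated. The regions were short, with a median length of 89.5 bp and a range of 51 to 441 bp, and 246 (61.2%) were under 100 bp. Together they covered 42103 bp.

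A region held a median of 10 CG cytosines (4 to 97), and the median density was 10.96 per 100 bp, beside 17.9 over all CG regions. The density was similar in the other open-sea classes, at 10.5 in repeats and 11.25 in genes and promoters. Size of the difference and direction both varied with the number of cytosines. The 97 regions with 4 to 6 cytosines had a median difference of 27.2 points in size, and 59.8% were hypermethylated. With 7 to 10 cytosines the median was 20.2 points and the hypermethylated share 68.2% (110 regions). With 11 to 20 cytosines the values were 19.1 points and 72.7% (143 regions), and with 21 or more they were 18.3 points and 88.5% (52 regions). Large differences were thus mostly found in regions of few cytosines, where a level rests on the fewest sites. Of the 10 largest differences, 8 were in regions with at most 6 cytosines. The list was made from this same contrast, and the parts of the listing and of read depth in this relation were not tested.

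**Figure D3:**
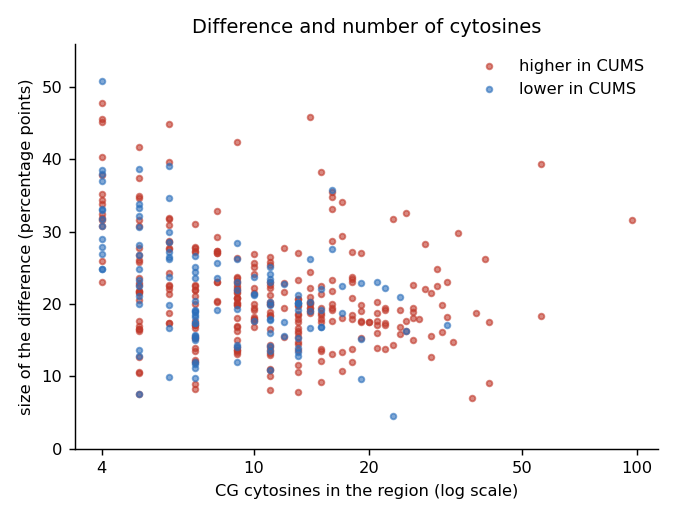
Size of the difference between CUMS and Ctrl, in percentage points, against the number of CG cytosines of the region on a log scale, for hypermethylated (red) and hypomethylated (blue) open-sea intergenic regions outside repeats. Of the 10 largest differences, 8 are at no more than 6 cytosines, and 46 of the 52 regions with 21 or more cytosines are hypermethylated.

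Individual regions were named by the authors' region score, which sums the test statistics over the cytosines of a region, by the size of the difference, by length and by number of cytosines. Each is located by its nearest landmark, which is the closest listed region of any cytosine context that was annotated to a gene. A landmark gives a position only. It is not a target of the region, and unlisted genes may lie closer.

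The hypermethylated region of highest score was chr3:18557021-18557376. It held 97 CG cytosines in 356 bp, the most of all 402, and its level was 33.7% in Ctrl and 65.3% in CUMS. Its nearest landmark was 68.5 kb away in Gsn, which encodes the actin-severing protein gelsolin. The second was chr8:58792692-58792851, with 56 cytosines and levels of 28.4% and 67.8%. At chr2:56627927-56628099, also with 56 cytosines, the levels were 63.8% and 82.2%, and the landmark was 351 kb away in Lifr, the receptor of leukemia inhibitory factor. These 3 regions had the most cytosines and the 3 highest scores among the hypermethylated. They were followed by chr5:157060184-157060425, which had 20.2% in Ctrl and 37.8% in CUMS. This region lay between landmarks in Vps13d, a lipid transfer protein gene 4.56 kb away, and in Tnfrsf1b, a receptor of tumour necrosis factor 22.8 kb away. At chr9:15809468-15809877 the levels were 26.0% and 52.2%, 74.7 kb from a landmark in Supt3h. At chr13:71607256-71607519 they were 12.6% and 41.0%. The other 4 of the 10 lay at chr2:240317034-240317330 (63.0% and 82.9%), chr17:32852399-32852608 (43.2% and 62.0%), chr8:100341415-100341566 (32.6% and 55.04%) and chr5:16478092-16478318 (52.6% and 85.2%). The 10 regions held 25 to 97 cytosines, above the median of 10, and their Ctrl levels ran from 12.6% to 63.8%.

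The hypomethylated region of highest score was chr13:79343405-79343554. It held 32 cytosines, the most among the hypomethylated, and its level was 89.4% in Ctrl and 72.3% in CUMS. The landmark was 52.9 kb away in Uck2, a uridine-cytidine kinase. At chr16:24427926-24427981 the levels were 93.8% and 72.8%, 411 kb from a landmark in Marchf1, a ubiquitin ligase. At chr17:20060575-20060737 they were 35.7% and 13.5%. High Ctrl levels were common among these regions. Close to full methylation in Ctrl stood chr1:89782239-89782313 (93.0% and 76.7%), 337 kb from Tshz3, and chrX:111943684-111943967 (95.5% and 59.7%). The region chr19:46158360-46158577 was lower in both groups (54.4% and 31.5%), and its landmark lay 259 kb away in Cdh13, which encodes the endothelial surface protein T-cadherin. The remaining 4 were chr2:229075845-229075899 (88.7% and 73.6%), chr3:101994978-101995041 (90.8% and 63.2%), chr18:48934474-48934623 (57.4% and 34.9%) and chr19:13335027-13335116 (92.8% and 74.0%).

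By size of the difference other regions led, and they held few cytosines. The largest positive difference, 47.8 points, was at chr9:21445665-21445767, with 5.09% in Ctrl, 52.9% in CUMS and 4 cytosines. A second region of this kind, chr9:21398127-21398276, had 8.79% and 53.6% over 6 cytosines. Both lay on the same side of Tfap2d, a transcription factor gene, at 245 and 292 kb. The region chr7:118348643-118348753 had more sites (14 cytosines), and its level was 34.9% in Ctrl and 80.8% in CUMS. At chr5:15683302-15683742, the longest of the 402 with 441 bp, the levels were 3.44% and 49.0% over only 4 cytosines. At chrX:109250186-109250300 they were 3.52% and 48.7%, again over 4 cytosines. The largest negative difference, -50.8 points, was at chr1:101074576-101074627, with 82.6% in Ctrl, 31.7% in CUMS and 4 cytosines. It was followed by chr3:63899377-63899474 (82.1% and 43.0%, 6 cytosines), 112 kb from Ube2e3, and by chr20:2297133-2297195 (86.1% and 47.4%, 5 cytosines). Both chr7:77641971-77642080 (58.3% and 19.9%) and chr7:78714121-78714286 (43.0% and 5.07%) rested on 4 cytosines, and their nearest landmark was in Csmd3. The other 2 of the 3 longest regions were chr2:230037609-230038044 of 436 bp, with 35.4% and 2.27% over 4 cytosines, and chr2:24055680-24056102 of 423 bp, with 52.7% and 77.6% over 30 cytosines. The latter lay between Thbs4, which encodes thrombospondin-4, and Mtx3, at 30.3 and 23.4 kb.

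The regions were spread over the genome. Chromosomes 1 to 20 held 390, chromosome X held 11, and 1 was on an unplaced scaffold. On each of the 19 chromosomes with at least 10 regions, more than 50% were hypermethylated, from 56.0% on chromosome 3 to 92.9% on chromosome 14, beside 79.5% and 86.8% of all CG regions there. Chromosome 11 held 8 regions, all hypermethylated, beside 72.9% of its CG regions. Per 10 Mb of the span covered by the list, the autosomes held a median of 1.60 regions. The highest values were 3.86 on chromosome 20 and 3.21 on chromosome 12, the lowest autosomal value was 0.884 on chromosome 15, and chromosome X had 0.722. All CG regions were likewise densest on chromosomes 20 (41.2 per 10 Mb) and 12 (39.4), beside an autosomal median of 20.7, and had 16.3 on chromosome 15 and 22.6 on chromosome X.

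**Figure D4:**
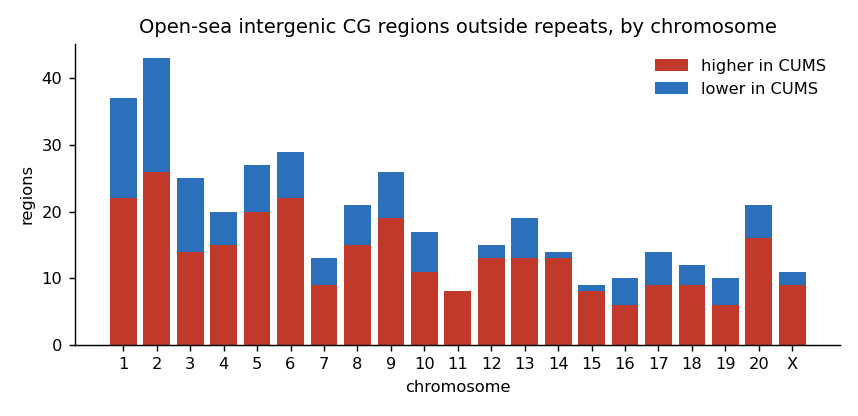
Number of open-sea intergenic CG regions outside repeats on each chromosome, split into hypermethylated (red) and hypomethylated (blue). The region on an unplaced scaffold is not drawn. Hypermethylated regions outnumber hypomethylated ones on every chromosome drawn, including the 2 with fewer than 10 regions.

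To place the regions in the open sea itself, the distance to the nearest edge of the annotated open-sea interval was taken, which is the point where the shelf of a CpG island begins. The median interval was 284 kb long, and the median distance to its edge was 63.9 kb. Hypermethylated regions lay nearer to the edge (median of 54.5 kb) than hypomethylated regions (90.8 kb), and the distances overlapped widely. Within 10 kb of the edge there were 40 of the 283 hypermethylated and 12 of the 119 hypomethylated regions. The median distance was 167 kb for open-sea intergenic regions in repeats and 43.8 kb for open-sea regions in genes and promoters. In repeats the order was the same, with 149 kb for hypermethylated and 187 kb for hypomethylated regions. The 402 regions occupied 358 different intervals. In 38 of these there were at least 2 regions, 82 in all, and in 24 of the 38 all were of a single direction.

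Neighbouring regions had the same direction throughout at short range. Within 10 kb of each other there were 11 pairs, 22 regions in all (5.47%), and no larger group. In 8 pairs both regions were hypermethylated and in 3 both were hypomethylated. The gaps ran from 53 to 5891 bp, and 7 were under 1 kb, where adjacent regions may be pieces of a single stretch that the region caller divided. The pairs were singled out after their values were seen.

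At chr14:95072387-95072559 the level was 44.9% in Ctrl and 76.7% in CUMS, and at its partner 238 bp away it was 25.2% and 48.6%. The pair on chromosome 9 at chr9:105172837-105172903 and chr9:105173531-105173629 had 39.6% and 32.7% in Ctrl and 66.7% and 54.2% in CUMS. These 2 pairs were alike in size, with differences of 21.5 to 31.8 points. The pair starting at chr6:98791302-98791471 was close to unmethylated in Ctrl (7.56% and 6.64%) and had 20.3% and 26.7% in CUMS. A further region, chr6:98750872-98750985, lay within 50 kb of it and was also hypermethylated (30.4% and 57.4%). Another group of 3 hypermethylated regions within 50 kb lay between chr9:64669492-64669588 and chr9:64703795-64703915. Of the hypomethylated pairs, that at chr10:63944608-63944667 and chr10:63944998-63945147 had 38.3% and 43.8% in Ctrl and 18.3% and 17.7% in CUMS. It lay between Lgals9, which encodes galectin-9, and Ksr1, a scaffold of MAP kinase signalling. At 50 kb there were 22 groups, of which 16 had a single direction, so that agreement was less complete over the longer range.

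**Figure D5:**
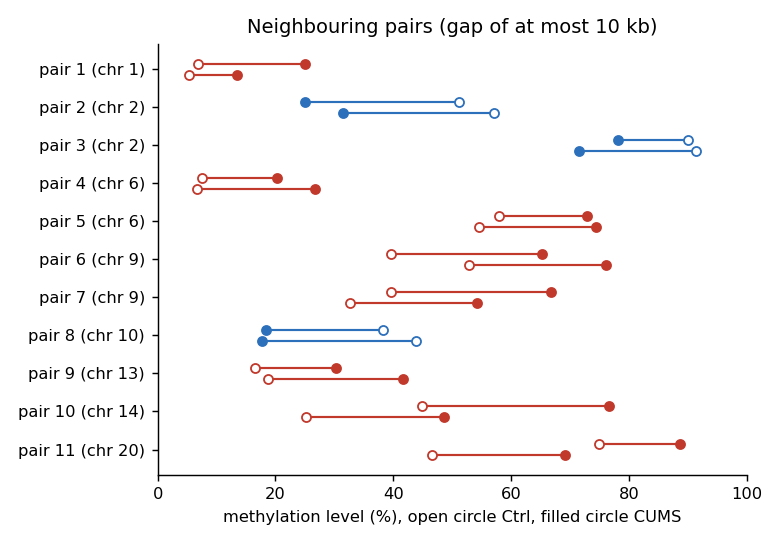
Methylation level in Ctrl (open circles) and CUMS (filled circles), in percent, of the 11 pairs of open-sea intergenic regions outside repeats within 10 kb of each other, with the chromosome of each pair. Red pairs are hypermethylated and blue pairs hypomethylated. Both regions point the same way in every pair.

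When listed CG regions of every class were considered as neighbours, 40 of the 402 (9.95%) had one within 10 kb, and 38 of these 40 had its direction. Over all CG regions 23.4% had such a neighbour and 91.3% of those had its direction. Split by direction, it was 95.5% of the hypermethylated and 54.3% of the hypomethylated. Among the 402 it was 31 of 32 hypermethylated and 7 of 8 hypomethylated regions. Of the 40 neighbours, 22 were other open-sea intergenic regions outside repeats, 8 were open-sea intergenic regions in repeats, and 8 were CpG island regions. The 22 are the 11 pairs described above, each counted from both sides, so the 40 are not separate observations.

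Methylation outside the CG context was compared at the same positions. In the CHG and CHH contexts H stands for A, C or T, and levels there are low in most mammalian cells. Of the 402 regions, 9 (2.24%) overlapped a listed CHG or CHH region by at least 1 bp, beside 4.63% of all CG regions. They formed 12 overlaps, of which 10 (83.3%) had the same direction, beside 84.9% over all CG regions. The share was 58.6% for open-sea intergenic regions in repeats and 65.7% for open-sea regions in genes and promoters. At chr8:58792692-58792851, the second hypermethylated region by score, the CHG level was 0.0834% in Ctrl and 6.004% in CUMS, and the CHH level was 0.176% and 3.14%. At chr12:36169311-36169430, where the CG level was 8.53% and 22.3%, the CHG level was 0.232% and 5.94% and the CHH level was 0.176% and 5.29%. Both contexts were lower in CUMS at the hypomethylated region chr4:168027446-168027505 (CG level 50.95% and 33.6%), where CHG had 3.49% and 0.0240%. The opposite directions were at chr7:77641971-77642080 and chr2:187748428-187748487, each hypomethylated in CG and overlapped by a CHH region that was higher in CUMS. A share of cytosines that escape deamination would add to the level in every context, and its part in these overlaps was not tested.

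The genes that flank the regions were then listed. The nearest landmark was at a median of 105 kb (middle range of 50.1 to 228 kb). It was within 100 kb for 191 regions, of which 147 (77.0%) were hypermethylated, and farther for 211, of which 136 (64.5%) were hypermethylated. Of the 18 regions with a landmark within 10 kb, 16 were hypermethylated and 2 hypomethylated. Those regions were also singled out after their values were seen.

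The landmark was a CG region for 10 of the 18, and in 8 of these 10 it had the direction of the distal region. In 7 of the 10 the landmark was under 10% in Ctrl, and in all 7 both regions were hypermethylated. A listed region so low in Ctrl has little room for a lower level in CUMS, so the direction of these landmarks was nearly fixed in advance. Of the distal regions, 16 of the 18 were hypermethylated, beside 70.4% of all 402. The 2 CG landmarks of opposite direction were in AABR07032328.1 (77.6% in Ctrl and 44.6% in CUMS) and in an unnamed gene (47.4% and 54.3%). Of the 8 CHG or CHH landmarks, 5 had the direction of the distal region (1 CHG and 4 CHH). The region chr17:32852399-32852608 lay 9.63 kb from a CG region in the promoter of Foxf2, a forkhead transcription factor that brain pericytes need to maintain the blood–brain barrier. The level of the distal region was 43.2% in Ctrl and 62.0% in CUMS, and that of the promoter region was 5.74% and 22.9%. Near Smad7, the inhibitor of TGF-β signalling, chr18:68981667-68981771 had 38.9% and 58.3%, and the CG region in the gene's promoter 8.32 kb away had 4.88% and 19.9%. Near Adamts2, a procollagen protease gene, chr10:34912492-34912551 had 72.7% and 89.5%, and the CG region at the gene's start 8.19 kb away had 8.74% and 31.0%. In all 7 places the distal region was partly or highly methylated in Ctrl, from 20.4% near Maco1 to 82.0% near Cpne5. The gene region was under 10% there because the 7 were picked out by that level. At Nkx6-2, a homeobox gene and another of the 7, chr1:194390039-194390120 had 32.0% and 55.6%, and the gene's CG region 6.68 kb away had 3.86% and 10.6%. Near Fgf2, which encodes basic fibroblast growth factor, chr2:120231140-120231224 had 24.7% and 52.1%, and its landmark was a CHH region in an intron. A region 0.369 kb beyond a listed region at the end of Cnnm2, chr1:245763691-245763742, had 37.9% and 54.8%, close to the 35.1% and 54.4% of that CG region. The hypomethylated region with the larger difference was near Ppt1, the lysosomal palmitoyl thioesterase, at chr5:135116179-135116247 (62.9% and 36.1%), where the landmark was a CHG region of opposite direction.

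For 302 regions the genes of both flanking landmarks were found in a gene table, and in 74 of these no other protein-coding gene of the table lay between them. Of the 74, 58 (78.4%) were hypermethylated and 16 hypomethylated, beside 70.4% hypermethylated among all 402. The following were picked from the 74 for the known roles of the flanking genes, after their values were seen. Distances are to the landmarks in the genes, in the order named. Between Six2 and Six3, homeobox genes of kidney and forebrain, chr6:9011710-9011815 had 29.0% in Ctrl and 53.1% in CUMS (36.5 and 30.9 kb). Between Irx5 and Irx3, homeobox genes of the Iroquois group, chr19:15013944-15014038 had 32.0% and 50.5% (372 and 198 kb). Both regions thus lay in gaps between related transcription factor genes and had similar levels. In the long gap between Sox9, a transcription factor of cartilage and glia, and Slc39a11, chr10:97826939-97827042 had 37.5% and 58.1%, and chr10:97889686-97889857 had 22.6% and 40.2%. They lay 18.6 and 81.3 kb from Sox9. In the gap between Tbx3, a T-box factor, and Med13l, chr12:37264967-37265024 had 57.8% and 77.2%, and chr12:37599969-37600093 had 6.89% and 22.2%. Their distances from Tbx3 were 371 and 706 kb. All 4 were hypermethylated.

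Further regions of the 74 were picked in the same way, with distances again in the order of the genes named. Between Cd9, a tetraspanin gene, and Vwf, which encodes von Willebrand factor of endothelial cells, chr4:158343740-158343837 had 74.7% in Ctrl and 86.3% in CUMS (72.3 and 107 kb). Between Kcnd2 and Tspan12, a tetraspanin of retinal vessel growth, chr4:50311048-50311169 had 41.1% and 62.5% (135 and 10.8 kb). Between Manba and Nfkb1, which encodes a subunit of NF-κB, chr2:224009732-224009827 had 37.0% and 64.8% (18.4 and 31.2 kb). Between Maml3 and Foxo1, a forkhead factor, chr2:136230607-136230658 had 5.98% and 14.2% (238 and 87.6 kb). These 4 were hypermethylated, whereas others were not. Between Fgfr1, a receptor of fibroblast growth factors, and Tacc1, chr16:66580052-66580128 had 76.8% and 59.0% (32.9 and 230 kb). Between Ets1, an endothelial and lymphoid transcription factor, and Kirrel3, chr8:31501105-31501171 had 95.3% and 70.4% (356 and 1417 kb). Between Vti1a and Tcf7l2, a transcription factor of Wnt signalling, chr1:254668746-254668812 had 27.2% and 9.86% (26.2 and 119 kb).

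Regions near 50% in Ctrl, again picked after their values were seen, also lay beside imprinted genes, which are expressed from a single parental copy and controlled by regions that carry methylation on a single parental copy. On chromosome 6, chr6:128493764-128493850 and chr6:128493904-128493963 lay 53 bp apart and 83.6 kb from a promoter region of Dlk1, with the promoter of a microRNA cluster that includes Mir410 on the other side. Their levels were 57.9% and 54.5% in Ctrl and 72.9% and 74.5% in CUMS. On chromosome 1, chr1:197736789-197736898 lay between Mrpl23 and Igf2, 86.0 kb from the start of the latter, and had 47.9% in Ctrl and 63.4% in CUMS over 29 cytosines. Whether these regions belong to the imprinting control regions of the 2 domains was not tested, since the matching genome was not used here.

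The nearest landmarks were also compared with 4 gene lists, with a limit of 100 kb on the distance. Only a gene with a listed region could be a landmark. This held for 14 of 40 endothelial and barrier genes and for 20 calcium channel genes. It also held for 7 of 14 stress axis and neurotrophin genes, and for 5 of 23 genes of one-carbon metabolism and DNA methylation. The counts that follow were not set beside those of all CG regions. The list of endothelial and barrier genes gave 2 regions, both hypermethylated, beside Foxf2 (above) and beside Tjp1, which encodes the tight junction protein ZO-1. The region near Tjp1, chr1:118814363-118814473, was 65.4 kb from its landmark and had 65.2% in Ctrl and 85.8% in CUMS. The lists of calcium channel genes, of stress axis and neurotrophin genes, and of genes of one-carbon metabolism and DNA methylation gave 0 regions within 100 kb. Beyond that limit, the nearest landmark of chr13:67011825-67011908 (76.9% and 94.5%) was in the calcium channel gene Cacna1e at 155 kb. The nearest landmark of chr17:5506672-5506750 (18.0% and 7.10%) was in Ntrk2, the receptor of brain-derived neurotrophic factor, at 176 kb. The fourth list gave 0 regions at any distance.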

How the data were processed

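DNA methylation was measured in sorted hippocampal BMECs of CUMS and Ctrl rats (3 samples each, grouped by title). Per the study's methods, DNA was treated with TET2, which protects methylated cytosine by oxidation, and then with an APOBEC enzyme, which deaminates unmethylated cytosine. The submitters' processing notes name FastQC 0.11.3, fastp 0.20.0, Bismark 0.16.3 and Bowtie2 on mRatBN7.2. Regions were called with DSS per the study's methods. The authors deposited each level as a fraction with 1 value per group, given here in percent. The deposited region score was used only for ranking. Differences are CUMS minus Ctrl, computed from the levels, and the authors' own difference column was not used. The study's methods report the sequencing coverage of the samples. The tables held no reads, coverage, p-values or values per sample, so the depth at each region is unknown and no test was run.

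Rows of the annotation table were joined into 24862 regions, and the class rule was applied to its 5849 CG regions. Overlaps with CHG and CHH regions used the full list of 160692 regions. The cytosine number appears to include both strands, since 13 CG regions (2 of the 402) hold more cytosines than 1 strand could, but it was odd in 242 of the 402, so not every site is counted on both. Landmark genes were matched by symbol to a RefSeq table of GRCr8 (580 of 692), used only for gene order, so antisense and noncoding genes may lie between. Named regions were the 10 of highest absolute score and the 5 of largest difference in each direction, the 3 longest, the 3 with most cytosines and up to 3 per gene list. Regions chosen otherwise are marked. The regions, rules and gene lists were chosen with earlier results of these data known. Python 3.11.15 with pandas 2.3.3 was used, and the functions were tested on simulated regions.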

Additional observations from a re-analysis of the deposited data

How the results depend on the processing

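Of 52 recomputed values over 8 results, 44 stayed close to the reported value. Only the 9 values of the hypermethylated share could have changed direction, and 0 did. The medians were of levels or of differences already sorted by direction, and the counts and overlap shares have no direction. The hypermethylated share was 70.4% as reported. It was 77.0% with at least 10 CG cytosines, 81.8% with a length of at least 200 bp (22 regions), 76.9% when regions were weighted by cytosines and 57.8% when regions in repeats were added, which brought the number of regions to 1477. Under the other 5 alternatives it stayed between 68.3% and 70.7%. Widening the distance between neighbours to 50 kb brought the regions in groups from 22 to 46. The share overlapped by CHG or CHH regions was 0.746% with the reduced list, which holds fewer CHH regions, and 16.7% within 1 kb. Medians of levels and differences stayed within 1.5 times of the reported ones under all 9 alternatives, and this limit was counted as close. It is wide for levels. With regions in repeats, the Ctrl median rose from 38.9% to 55.1% for hypermethylated and from 66.8% to 83.8% for hypomethylated regions. With a length of at least 200 bp, that of the hypomethylated was 44.9% (4 regions). No paired analysis was possible because each region has 1 level for CUMS and 1 for Ctrl. For the same reason no replicate could be left out, and the depth behind small regions is unknown.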
